A study of Mus musculus with 12 samples.

Results

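The genes described here are the E2F transcription factors E2f1, E2f2, E2f3, E2f7 and E2f8, the pocket proteins Rb1 and Rbl1, the E cyclins Ccne1 and Ccne2, and the phosphatase Cdc25a. They were taken from a given list of names, and every probe set that the annotation of the Affymetrix mouse array pairs with 1 of these genes alone was included. This gave 10 of the 18193 genes with a probe set of their own, and 22 of 45037 probe sets that are not controls. RNA came from B16-OVA, a cultured mouse melanoma line engineered to make the antigen ovalbumin. The 4 groups were cells given 100 nM of the MEK inhibitor GDC-0623 (MEKi) for 72 h, cells given its solvent DMSO for 72 h, cells given MEKi for 24 h and cells given DMSO for 24 h, with 3 arrays in each. All groups were 1 cell line with no other cells added, so they model the response of tumor cells alone. Replicates are termed biological in the series text, with no statement of separate cultures, so the p-values reflect spread among these arrays that may be technical.

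MEK activates the kinase ERK, and ERK signalling is known to raise D-type cyclins in dividing cells. Cyclin D with CDK4 or CDK6 phosphorylates the retinoblastoma protein RB, the product of Rb1, and its relative p107, the product of Rbl1, and this frees E2F factors to switch on genes for DNA replication. E2F1, E2F2 and E2F3 are the activators of the family, while E2F7 and E2F8 are repressors that bind DNA without a DP partner and turn the same genes down later in the cycle. Cyclin E, bound to CDK2, phosphorylates RB further, and CDC25A removes inhibitory phosphates from CDK2. E2f1, E2f7, E2f8, Rbl1, Ccne1, Ccne2 and Cdc25a are themselves widely known as targets of E2F.

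Values are log2 signals after robust multi-array averaging (RMA). The 7 melanocyte markers, among them Tyrp1, Dct and Sox10, lay at or above the 98.3rd percentile of all probe sets by mean signal. Of 13 markers of immune, fibroblast, endothelial and epithelial cells, none lay above the 62.5th percentile. At 24 h 2 of these 13 were called higher with MEKi (Lyz2, and Col1a2 with means of 7.36 with MEKi and 6.67 with DMSO), and at 72 h 1 was (Cd68, 5.37 and 4.71). Of the 7 melanocyte markers 2 were called higher with MEKi at 24 h and 0 at 72 h. They were Tyr (12.95 with MEKi and 12.59 with DMSO) and Mitf (13.06 and 12.72). Over all probe sets 3.83% were called higher at 24 h and 2.99% at 72 h. The pan-leukocyte marker Ptprc stayed between 2.81 and 3.47 on every array. Dusp6, an ERK-induced phosphatase that serves here as a check of the treatment, was lower with MEKi by -1.29 ± 0.12 at 72 h and by -1.41 ± 0.17 at 24 h (log2 scale with the SE of limma, 3 arrays per group; limma adjusted p = 0.000671 and 0.00401). Etv5 and Spry4, part of the same check, had smaller differences at 72 h. Etv5 gave -1.29 ± 0.12 at 72 h and -4.06 ± 0.42 at 24 h (limma adjusted p = 0.000744 and 0.00256). Spry4 gave -0.58 ± 0.15 and -2.08 ± 0.13 (limma adjusted p = 0.0452 and 0.000517). In DMSO cells Etv5 averaged 5.35 at 72 h and 8.94 at 24 h, and Spry4 4.35 and 6.02. The part of this in the results between times was not tested. The harvest times differed in control probe sets. For the Dap control, a spiked-in RNA, the 3′ probe set exceeded the 5′ one by 1.42 ± 0.04 log2 units at 72 h and by 2.06 ± 0.08 at 24 h (SD over 6 arrays each). A two-sided exact permutation test gave p = 0.00216, the lowest value 6 against 6 arrays allow (0.0036 adjusted over 5 measures). The same p held for the median signal of an array, which averaged 5.393 at 72 h and 5.325 at 24 h, and for its interquartile range, 4.093 at 72 h and 4.282 at 24 h. The part of these measures in the results between times was not tested.

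Of the 22 probe sets, 17 had a mean over the 12 arrays above the median of all probe sets (5.363). The dimmer ones were 1447840_x_at of E2f1, 1444400_at of Rb1, 1432604_at and 1454293_at of Rbl1 and 1445995_at of Cdc25a, and none of these 5 passed the test in any of the comparisons. E2f7 and Ccne2 had 1 probe set each. For every other gene the probe set with the highest mean is called its main probe set. A probe set with the suffix _x_at, such as the main one of Ccne1, can also bind other sequences. In bulk RNA, fewer cells in a cycle phase and less RNA per cell cannot be told apart.

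Promoter letters are shown for the 4 members whose sequence just before an annotated start holds an E2F-type word. RefSeq (GRCm38.p6) gave 10 such windows of 250 bases for 8 of the 10 genes, and no window was used for Rb1 or Ccne2. The words searched, on both strands, were TTTCCCGC, TTTCGCGC, TTTGCCGC and TTTGGCGC. Of 32851 windows of this length over all genes, 1.86% held at least 1 of them, and 4 of the 10 member windows did. The lines below run 5′ to 3′ in the direction of the gene, with the matched word in capitals. The window of E2f3 is chr13:29986064-29986313 (minus strand), that of E2f7 chr10:110745189-110745438 (plus strand), that of Rbl1 chr2:157204535-157204784 (minus strand) and that of Cdc25a chr9:109875329-109875578 (plus strand).
E2f3: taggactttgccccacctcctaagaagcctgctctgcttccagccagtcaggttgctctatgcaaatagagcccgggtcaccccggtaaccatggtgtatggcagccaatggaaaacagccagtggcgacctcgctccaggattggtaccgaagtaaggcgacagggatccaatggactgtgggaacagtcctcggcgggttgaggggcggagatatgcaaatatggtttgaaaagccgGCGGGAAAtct
E2f7: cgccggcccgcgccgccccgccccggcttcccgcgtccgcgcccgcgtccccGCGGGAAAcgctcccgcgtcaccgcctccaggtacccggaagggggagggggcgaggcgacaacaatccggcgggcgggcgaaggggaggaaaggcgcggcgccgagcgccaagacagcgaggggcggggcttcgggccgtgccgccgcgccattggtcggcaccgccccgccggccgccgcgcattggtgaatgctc
Rbl1: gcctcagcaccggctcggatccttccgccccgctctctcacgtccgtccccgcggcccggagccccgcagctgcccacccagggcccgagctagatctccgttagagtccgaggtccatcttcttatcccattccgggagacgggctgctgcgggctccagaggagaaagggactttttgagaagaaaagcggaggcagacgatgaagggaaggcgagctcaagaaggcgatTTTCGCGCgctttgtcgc
Cdc25a: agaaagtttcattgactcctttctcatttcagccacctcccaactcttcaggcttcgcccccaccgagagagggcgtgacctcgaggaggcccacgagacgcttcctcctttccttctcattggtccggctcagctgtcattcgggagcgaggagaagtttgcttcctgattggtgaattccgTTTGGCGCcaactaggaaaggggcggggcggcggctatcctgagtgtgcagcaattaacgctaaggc
The word began 11 bases before the start in E2f3, 198 bases before it in E2f7, 18 bases before it in Rbl1 and 67 bases before it in Cdc25a. Distances are from the annotated start next to each window, and the Cdc25a window runs past the outermost start of its gene (109875518). A match describes the letters only. The windows of E2f1, E2f2, E2f8 and Ccne1 and the downstream window of E2f3 held no match, which says nothing of binding there. A window can lie inside the gene, as do those of E2f1 and E2f8 and the downstream ones of E2f2 and E2f3, and other words were not searched.

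The first comparison asked what MEKi changed in these genes after 24 h. Of the 22 probe sets 12 were lower with MEKi and 0 were higher, where 4.61% of all probe sets were called lower and 3.83% higher (limma, adjusted p under 0.05 over all probe sets). At an unadjusted p under 0.05 the counts were 13 lower and 2 higher, but no share of all probe sets is given at that threshold. Among main probe sets 6 of 10 genes were lower: E2f2, E2f3, E2f7, Ccne1, Ccne2 and Cdc25a. The median difference over the 22 was -0.31 (log2), beside 0.007 over all probe sets. In each of the 12 the MEKi arrays all lay below the DMSO arrays. No share without overlap over all probe sets is given, so this describes the calls and adds no support to them. The called differences were small, between 1.19-fold and 1.54-fold.

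**Figure D1:**
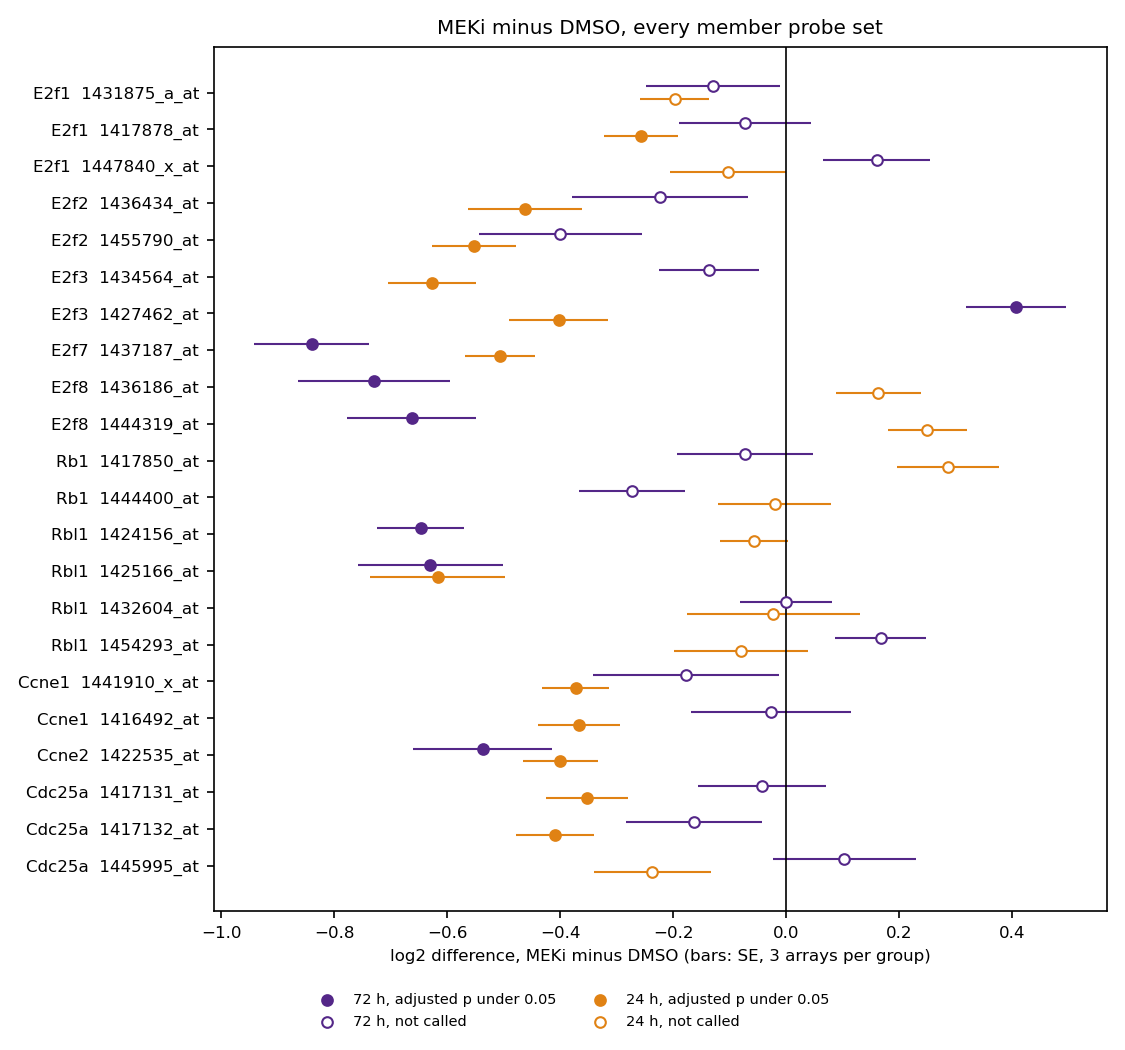
Log2 difference between MEKi and DMSO (x axis, bars are the SE, 3 arrays per group) for each of the 22 probe sets (y axis) at 72 h (purple) and 24 h (orange), with filled points for an adjusted p under 0.05. At 24 h the 12 filled points all lie left of 0, while at 72 h 6 lie left and 1, of E2f3, lies right of it.

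Among the activators, E2f3 fell the most at 24 h. Its main probe set read 8.52, 8.53 and 8.66 with MEKi, against 9.25, 9.27 and 9.07 with DMSO, and the difference was -0.63 ± 0.08 (limma adjusted p = 0.00461). All MEKi arrays lay below all DMSO arrays. Its other probe set, 1427462_at, read 6.56, 6.55 and 6.44 with MEKi, against 6.83, 7.10 and 6.83 with DMSO (-0.40 ± 0.09; limma adjusted p = 0.0285). Both probe sets of E2f2 fell as well. The main one read 7.35, 7.29 and 7.28 with MEKi and 8.01, 7.66 and 7.64 with DMSO (-0.46 ± 0.10; limma adjusted p = 0.0289), so that DMSO replicate 1 stood above the other controls. The dimmer 1455790_at read 6.33, 6.23 and 6.25 with MEKi and 6.90, 6.70 and 6.87 with DMSO (-0.55 ± 0.07; limma adjusted p = 0.0055).

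E2f1 stood at the edge of the threshold at 24 h. Its main probe set read 9.25, 9.28 and 9.37 with MEKi, against 9.49, 9.50 and 9.50 with DMSO. These groups did not overlap, but the difference of -0.20 ± 0.06 missed the threshold (limma adjusted p = 0.0907). The probe set 1417878_at read 8.98, 8.95 and 8.99 with MEKi and 9.28, 9.14 and 9.27 with DMSO, and was called lower (-0.26 ± 0.07; limma adjusted p = 0.0469). That call ended when the replicate number was a block (adjusted p = 0.0651) and without any 1 of the 6 arrays (adjusted p from 0.0584 to 0.149).

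Of the repressors, E2f7 was called at 24 h and E2f8 was not. E2f7 read 8.54, 8.55 and 8.53 with MEKi, against 9.03, 9.12 and 8.99 with DMSO, and fell by 0.51 ± 0.06 on the log2 scale (limma adjusted p = 0.00445). The main probe set of E2f8 read 10.29, 10.33 and 10.11 with MEKi and 10.08, 10.12 and 10.04 with DMSO, where MEKi replicate 3 overlapped the controls (0.16 ± 0.08; limma adjusted p = 0.236). Its second probe set, 1444319_at, read 6.09, 6.10 and 6.05 with MEKi and 5.85, 5.72 and 5.92 with DMSO (0.25 ± 0.07; limma adjusted p = 0.0652).

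Neither main probe set of the pocket proteins passed the test at 24 h. Rb1 read 8.79, 8.82 and 8.53 with MEKi, against 8.49, 8.45 and 8.34 with DMSO (0.29 ± 0.09; limma adjusted p = 0.0937). Rbl1 read 10.36, 10.33 and 10.40 with MEKi and 10.47, 10.40 and 10.39 with DMSO, and these groups overlapped (-0.06 ± 0.06; limma adjusted p = 0.645). A second Rbl1 probe set, 1425166_at, read 6.88, 6.83 and 7.19 with MEKi and 7.53, 7.78 and 7.44 with DMSO, and was called lower (-0.62 ± 0.12; limma adjusted p = 0.0187). The main signal minus this one was higher with MEKi by 0.56 in 3 of 3 arrays (two-sided exact permutation p = 0.1, the lowest possible with 3 against 3 arrays, on a pair chosen after its values were seen). The call on Rbl1 at 24 h therefore rests on which of its 2 brighter probe sets is read.

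The E cyclins and Cdc25a fell at 24 h on each brighter probe set. Ccne2 read 8.88, 8.93 and 8.93 with MEKi, against 9.22, 9.37 and 9.35 with DMSO (-0.40 ± 0.07; limma adjusted p = 0.011). Ccne1 read 9.33, 9.29 and 9.34 with MEKi and 9.73, 9.69 and 9.66 with DMSO on its main probe set (-0.37 ± 0.06; limma adjusted p = 0.00943). On 1416492_at it read 8.53, 8.60 and 8.72 with MEKi and 8.96, 9.05 and 8.94 with DMSO (-0.37 ± 0.07; limma adjusted p = 0.0197). For both E cyclins all MEKi arrays lay below all DMSO arrays. Cdc25a read 9.44, 9.27 and 9.46 with MEKi and 9.70, 9.80 and 9.73 with DMSO on its main probe set (-0.35 ± 0.07; limma adjusted p = 0.0234, or 0.0518 with the replicate number as a block). On 1417132_at it read 9.37, 9.33 and 9.50 with MEKi and 9.75, 9.84 and 9.84 with DMSO (-0.41 ± 0.07; limma adjusted p = 0.012), and the call held with the block (adjusted p = 0.0241).

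With 5 arrays the count of members called at 24 h lay between 4 (without MEKi replicate 1) and 11 (without MEKi replicate 3). The calls of E2f2 (1455790_at), E2f3 (main), E2f7 and Ccne1 (main) held without any 1 array (highest adjusted p 0.0294, 0.0284, 0.0278 and 0.0456). The call of Ccne2 ended only without MEKi replicate 1 (adjusted p = 0.0544). That of E2f3 on 1427462_at ended without any 1 of the 6 arrays (up to 0.0854). That of E2f2 (main) ended without DMSO replicate 2 or any MEKi array (up to 0.102), and that of Rbl1 on 1425166_at without replicate 1 or 2 of either group (up to 0.0803). The calls of Ccne1 on 1416492_at and of Cdc25a on its main probe set ended without any array but MEKi replicate 3 (up to 0.0816 and 0.0812), and that of Cdc25a on 1417132_at without DMSO replicate 3 or MEKi replicate 1 or 2 (up to 0.0583). With all 12 arrays in 1 fit, which share 1 estimate of the spread, the 24 h calls of E2f1 (1417878_at, adjusted p = 0.151), E2f2 (main, 0.0724) and Ccne1 (0.131 and 0.09) ended. The 18S rRNA control at 24 h also parted the groups, at 12.54 ± 0.11 (SD, n = 3) with MEKi and 12.21 ± 0.13 with DMSO, and its part in these results was not tested.

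After 72 h the members called were in part other ones. Of 22 probe sets 6 were lower with MEKi and 1 was higher, where 4.25% of all probe sets were called lower and 2.99% higher. The median difference over the 22 was -0.15, beside 0.013 over all probe sets. Among main probe sets E2f7, E2f8, Rbl1 and Ccne2 were lower and 0 were higher, with 4 lower and 0 higher at an unadjusted p under 0.05. No share of all probe sets is given at that unadjusted threshold. E2f7 and Ccne2 were lower at both times on their only probe set, and so was Rbl1 on 1425166_at, which makes 3 probe sets called lower at 72 h and at 24 h. By main probe sets these were the 2 genes E2f7 and Ccne2, where 1.71% of all genes were lower at both times.

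E2f7 showed the largest fall of any member probe set at 72 h. It read 6.98, 7.11 and 7.28 with MEKi, against 7.95, 8.08 and 7.86 with DMSO, and was 1.79-fold lower (-0.84 ± 0.10; limma adjusted p = 0.00183). E2f8 also fell on both of its probe sets. The main one read 8.63, 8.12 and 8.41 with MEKi and 8.93, 9.17 and 9.25 with DMSO (-0.73 ± 0.14; limma adjusted p = 0.0114). The second, 1444319_at, read 4.75, 4.83 and 4.96 with MEKi and 5.34, 5.74 and 5.45 with DMSO (-0.66 ± 0.11; limma adjusted p = 0.00831). The MEKi and DMSO arrays of both repressor genes did not overlap. That describes the calls and adds no support to them, since the share over all probe sets is not given.

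Rbl1 fell at 72 h on both brighter probe sets. Its main probe set read 9.76, 9.69 and 9.78 with MEKi, against 10.37, 10.42 and 10.38 with DMSO (-0.65 ± 0.08; limma adjusted p = 0.00176). The probe set 1425166_at read 6.54, 6.46 and 6.19 with MEKi and 7.17, 7.13 and 6.78 with DMSO (-0.63 ± 0.13; limma adjusted p = 0.0171). Here the 2 differed in their MEKi effect by only -0.02 (exact permutation p = 0.9). Rb1 read 9.13, 8.95 and 8.93 with MEKi and 9.17, 8.81 and 9.25 with DMSO, and its groups overlapped (-0.07 ± 0.12; limma adjusted p = 0.81).

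Of the E cyclins, Ccne2 was called at 72 h and Ccne1 was not. Ccne2 read 7.83, 7.76 and 7.52 with MEKi, against 8.19, 8.47 and 8.06 with DMSO (-0.54 ± 0.12; limma adjusted p = 0.0291). Ccne1 read 9.49, 9.19 and 9.02 with MEKi and 9.41, 9.73 and 9.09 with DMSO on its main probe set, and MEKi replicate 1 stood above 2 of the 3 controls (-0.18 ± 0.17; limma adjusted p = 0.627). Its other probe set gave -0.03 ± 0.14 (limma adjusted p = 0.948). Cdc25a gave -0.04 ± 0.11 and -0.16 ± 0.12 on its brighter probe sets (limma adjusted p = 0.885 and 0.518). The MEKi and DMSO arrays of Ccne1 and Cdc25a overlapped.

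E2f3 gave opposite signs on its 2 probe sets at 72 h. The main one read 8.39, 8.40 and 8.22 with MEKi, against 8.49, 8.55 and 8.38 with DMSO, with overlap (-0.14 ± 0.09; limma adjusted p = 0.453). The other, 1427462_at, read 6.70, 6.83 and 6.78 with MEKi and 6.26, 6.48 and 6.35 with DMSO, and was the 1 member probe set called higher (0.41 ± 0.09; limma adjusted p = 0.0232). The signal of 1427462_at minus that of the main probe set was higher with MEKi by 0.54 (exact permutation p = 0.1, on a pair chosen after its values were seen). The mean over both probe sets of E2f3 was 0.135 higher with MEKi at 72 h and did not pass (limma adjusted p = 0.308).

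The other activators did not pass the test at 72 h. E2f2 read 7.15, 6.85 and 6.46 with MEKi and 7.11, 7.13 and 6.89 with DMSO on its main probe set (-0.22 ± 0.16; limma adjusted p = 0.487). Its 1455790_at read 5.44, 5.48 and 5.09 with MEKi and 5.74, 5.99 and 5.48 with DMSO, with each MEKi array below the DMSO array of the same number. That difference of -0.40 ± 0.14 missed the threshold without the block (limma adjusted p = 0.144) and passed it with the replicate number as a block (0.0267). E2f1 gave -0.13 ± 0.12 and -0.07 ± 0.12 on its brighter probe sets (limma adjusted p = 0.618 and 0.803).

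With 5 arrays the count of members called at 72 h lay between 4 (without DMSO replicate 1 or MEKi replicate 2) and 6 (without DMSO replicate 3). The calls of E2f7, both probe sets of E2f8 and the main one of Rbl1 held without any 1 array (highest adjusted p 0.0118, 0.0418, 0.0434 and 0.0119). That of Ccne2 ended without any array but DMSO replicate 3 (up to 0.0832), that of E2f3 on 1427462_at without any array but DMSO replicate 2 (up to 0.105), and that of Rbl1 on 1425166_at without DMSO replicate 1 or 2 or MEKi replicate 2 (up to 0.0724).

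**Figure D2:**
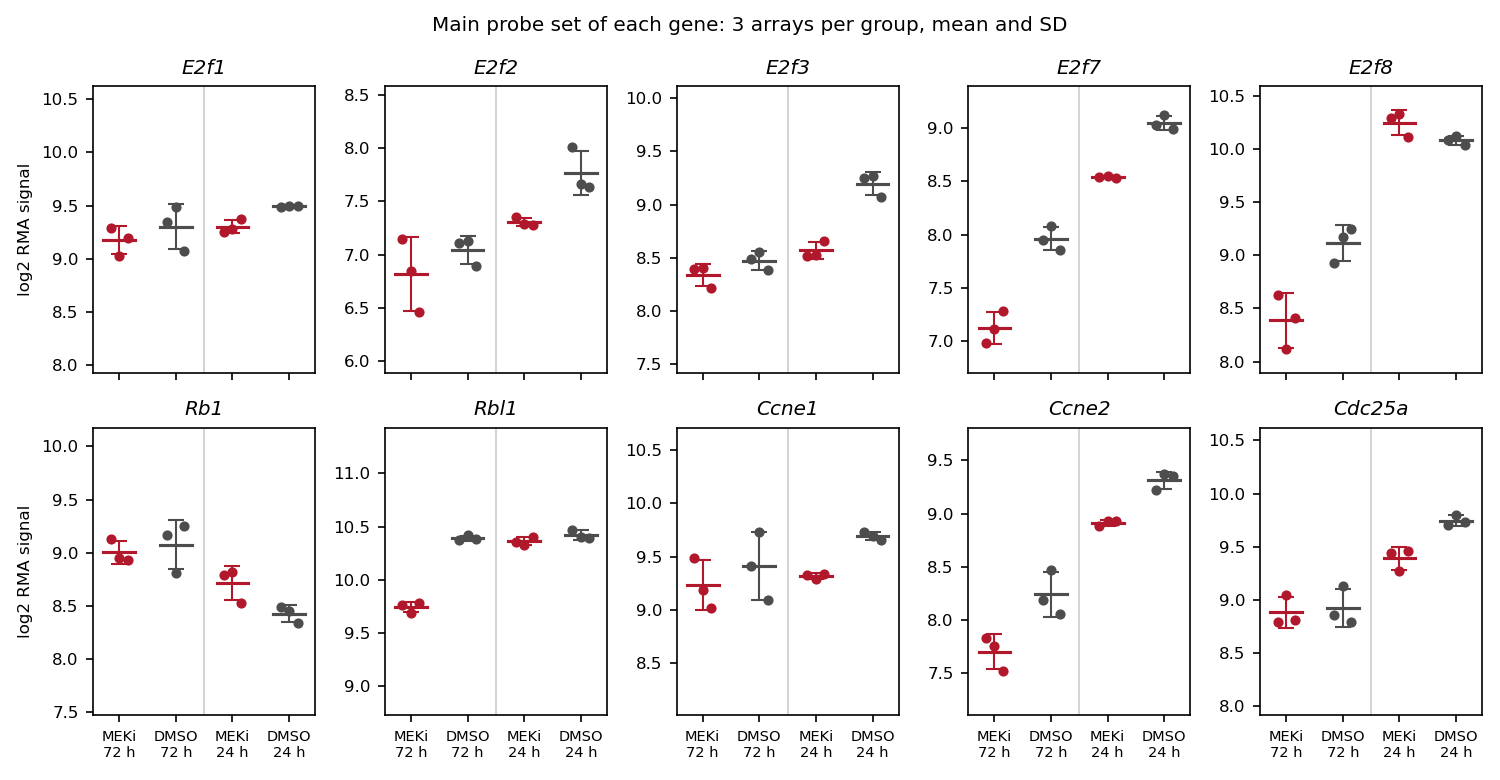
Log2 RMA signal (y axis, each panel spans the same range of log2 units) of the main probe set of each gene in MEKi and DMSO at 72 h and at 24 h (x axis), with points for the 3 arrays of a group, a line for the mean and bars for the SD. E2f8 and Rbl1 show a gap between MEKi and DMSO at 72 h and overlapping arrays at 24 h, while E2f3 shows the gap at 24 h.

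Whether the MEKi effect itself changed between the times was tested as the effect at 72 h minus that at 24 h, over all 12 arrays. Of 22 probe sets 3 were called lower and 2 higher, where 1.66% of all probe sets were lower and 1.36% higher. E2f8 passed on both probe sets, by -0.89 ± 0.17 and -0.91 ± 0.14 (limma adjusted p = 0.0122 and 0.00446), with 72 h effects of -0.73 and -0.66 and 24 h effects of 0.16 and 0.25. Rbl1 passed on its main probe set (-0.59 ± 0.09; limma adjusted p = 0.00423) and not on 1425166_at (-0.01 ± 0.19; limma adjusted p = 0.987). With the mean over all 4 probe sets of Rbl1, the 2 dim ones included, the difference was -0.083 and did not pass (limma adjusted p = 0.72).

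E2f3 passed in the other direction on both of its probe sets. The main one gave 0.49 ± 0.12 (limma adjusted p = 0.039), a call that ended without any 1 of 8 of the 12 arrays (adjusted p up to 0.108), namely replicates 1 and 2 of MEKi at either time, replicates 1 and 3 of DMSO at 72 h and replicates 1 and 2 of DMSO at 24 h. The other gave 0.81 ± 0.13 (limma adjusted p = 0.00469) and held without any 1 array. For members called at only 1 time the difference did not pass in Ccne1 (0.20 and 0.34; limma adjusted p = 0.711 and 0.37), Cdc25a (0.31 and 0.25; 0.301 and 0.469) or E2f2 (0.24 and 0.15; 0.654 and 0.759). Nor did it pass in E2f1 on 1417878_at (0.18 ± 0.14; limma adjusted p = 0.603). For those genes the fall at 24 h was therefore not shown to differ from the effect at 72 h. E2f7 gave -0.33 ± 0.12 (limma adjusted p = 0.173) and Ccne2 -0.14 ± 0.15 (limma adjusted p = 0.741).

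The time comparisons asked how these genes changed between the harvests under each treatment. In MEKi cells 10 of 22 probe sets were lower and 1 higher at 72 h than at 24 h, where 13.9% of all probe sets were lower and 11.3% higher, with a median of -0.19 over the members and 0.037 over all. In DMSO cells 11 were lower and 1 higher, where 14.3% of all were lower and 11.3% higher, with a median of -0.40 over the members. These comparisons use the same arrays as the MEKi comparisons, and the Dap control moved with harvest time in both treatments (MEKi 1.39 ± 0.05 at 72 h and 2.08 ± 0.11 at 24 h, DMSO 1.44 ± 0.04 and 2.03 ± 0.04; SD, n = 3). Of the 13 markers of other cell types 2 were higher and 1 lower at 72 h in MEKi cells, and 4 were higher in DMSO cells. Of the 7 melanocyte markers 1 was lower at 72 h in MEKi cells, and 1 was higher and 1 lower in DMSO cells. The part of these measures in the time differences was not tested, nor was that of cell density, which was not measured here.

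The repressors and Ccne2 fell over time under both treatments on their main probe sets. E2f8 was 3.62-fold lower at 72 h than at 24 h in MEKi cells (-1.86 ± 0.13; limma adjusted p = 2.13e-05) and 1.95-fold lower in DMSO cells (-0.96 ± 0.09; limma adjusted p = 0.000235). Its second probe set, 1444319_at, was 2.35-fold lower in MEKi cells (-1.23 ± 0.08; limma adjusted p = 1.77e-05) and was not called in DMSO cells, where the arrays overlapped (-0.32 ± 0.11; limma adjusted p = 0.0646). E2f7 was 2.67-fold lower in MEKi cells (-1.42 ± 0.09; limma adjusted p = 1.52e-05) and 2.12-fold lower in DMSO cells (-1.08 ± 0.08; limma adjusted p = 9.5e-05). Ccne2 was 2.31-fold lower in MEKi cells (-1.21 ± 0.09; limma adjusted p = 3.49e-05) and 2.10-fold lower in DMSO cells (-1.07 ± 0.11; limma adjusted p = 0.000284). On the main probe sets of these 3 genes the 72 h arrays lay below every 24 h array of the same treatment. The share of all probe sets without overlap is not given, so this adds no support to the calls.

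Cdc25a and E2f2 also fell over time under both treatments. Cdc25a fell by 0.51 and 0.81 on the log2 scale in MEKi cells (limma adjusted p = 0.00389 and 0.000467) and by 0.82 and 1.06 in DMSO cells (limma adjusted p = 0.000566 and 0.000173) on its brighter probe sets. E2f2 fell by 0.49 and 0.93 in MEKi cells (limma adjusted p = 0.0365 and 0.000249) and by 0.73 and 1.09 in DMSO cells (limma adjusted p = 0.00224 and 0.000494). The MEKi call of E2f2 on its main probe set ended without any array but MEKi 72 h replicate 1 (adjusted p up to 0.0981).

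Rb1 rose over time in DMSO cells, the only member to do so on its main probe set. It read 9.17, 8.81 and 9.25 at 72 h, against 8.49, 8.45 and 8.34 at 24 h (0.65 ± 0.12; limma adjusted p = 0.00384). In MEKi cells it read 9.13, 8.95 and 8.93 at 72 h, against 8.79, 8.82 and 8.53 at 24 h, and the difference of 0.29 ± 0.10 missed the threshold (limma adjusted p = 0.0591). With the replicate number as a block it was 0.0459, but that block joined arrays of different times, whose pairing was not shown. The 2 time changes of Rb1 were not shown to differ (-0.36 ± 0.16; limma adjusted p = 0.294).

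The main probe set of Rbl1 and both of E2f3 changed over time by amounts that differed between the treatments. The main probe set of Rbl1 fell by 0.62 ± 0.07 in MEKi cells (limma adjusted p = 0.000258) and gave -0.03 ± 0.07 in DMSO cells (limma adjusted p = 0.788), and the test of this difference is the one above. On 1425166_at Rbl1 was lower at 72 h by much the same in MEKi cells (-0.57 ± 0.12; limma adjusted p = 0.00731) and in DMSO cells (-0.56 ± 0.13; limma adjusted p = 0.0117). E2f3 fell by 0.72 ± 0.09 in DMSO cells (limma adjusted p = 0.000524) and gave -0.23 ± 0.08 in MEKi cells (limma adjusted p = 0.0678). Its 1427462_at was lower at 72 h in DMSO cells (-0.56 ± 0.10; limma adjusted p = 0.00374) and higher in MEKi cells (0.25 ± 0.08; limma adjusted p = 0.0367, or 0.0565 with the block across times, where pairing was not shown, and up to 0.108 without an array). The arrays whose removal ended that last call were all but MEKi 72 h replicate 1. Ccne1 was called only on 1416492_at in DMSO cells (-0.49 ± 0.14; limma adjusted p = 0.0339), a call that ended without DMSO 72 h replicate 1 or any DMSO 24 h array (up to 0.102). E2f1 was not called under either treatment.

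**Figure D3:**
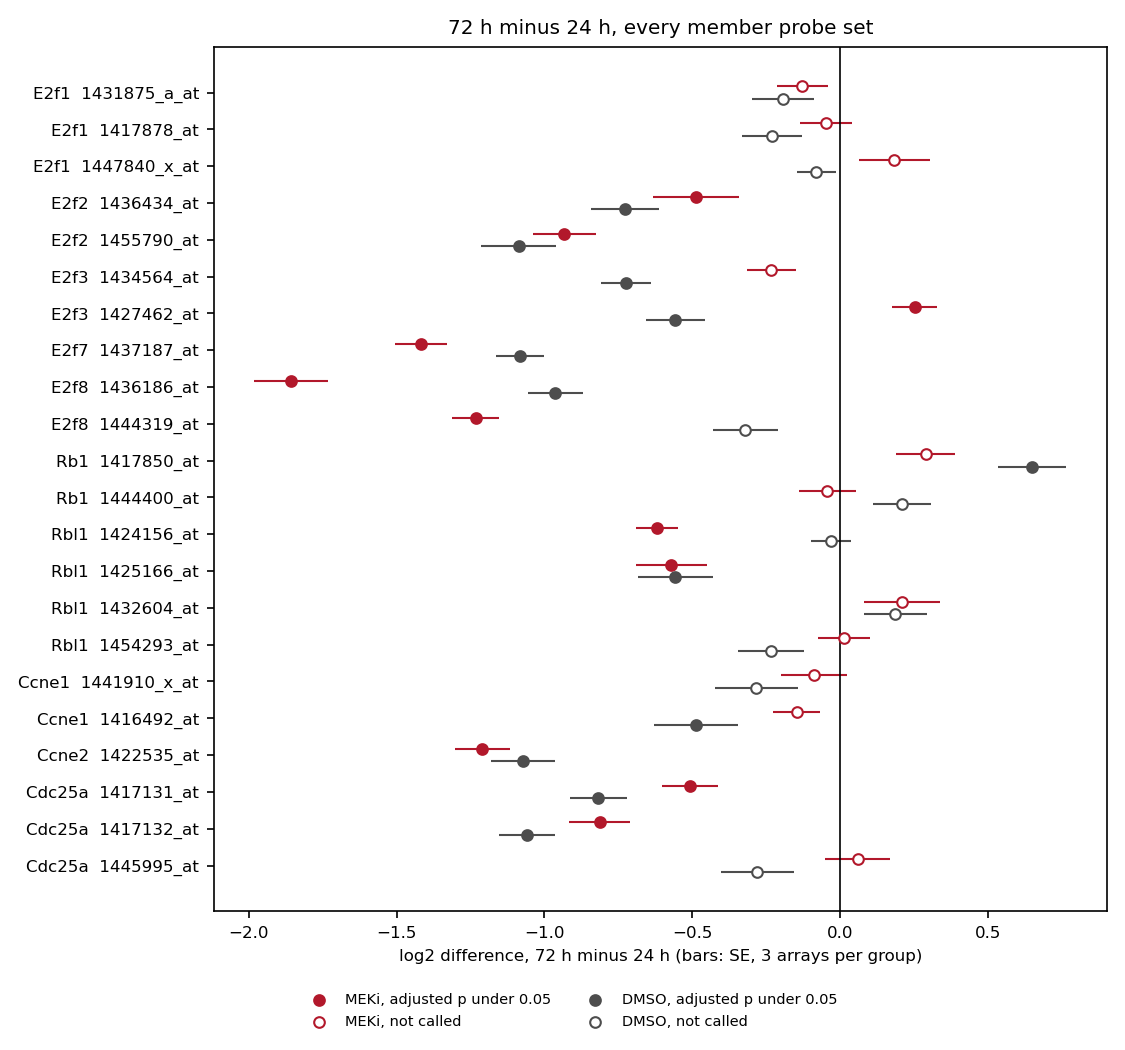
Log2 difference between 72 h and 24 h (x axis, bars are the SE, 3 arrays per group) for each of the 22 probe sets (y axis) in MEKi (red) and DMSO (grey) cells, with filled points for an adjusted p under 0.05. E2f8 reaches -1.86 in MEKi cells and -0.96 in DMSO cells, and the main Rbl1 probe set reaches -0.62 in MEKi cells and -0.03 in DMSO cells.

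By mean signal, E2f3, E2f2, E2f7, Ccne2 and Cdc25a stood in 1 order, with MEKi at 72 h lowest, then DMSO at 72 h, MEKi at 24 h and DMSO at 24 h. For E2f7 the means were 7.12 (MEKi) and 7.96 (DMSO) at 72 h and 8.54 (MEKi) and 9.05 (DMSO) at 24 h, and each neighbour in the order lay apart from the next on every array. How often this holds over all probe sets is not given. For Cdc25a the lowest neighbours, MEKi (8.88) and DMSO (8.93) at 72 h, did not differ beyond their spread, nor did those of E2f2 (6.82 and 7.04) and E2f3 (8.34 and 8.47). For E2f3 the arrays of the middle neighbours, DMSO at 72 h (8.47) and MEKi at 24 h (8.57), overlapped too. E2f8 was highest in MEKi cells at 24 h (10.24), and Rb1 was highest in DMSO cells at 72 h (9.08) and lowest in DMSO cells at 24 h (8.43).

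Across the 12 arrays, which share harvest times and treatments, the main probe sets most alike were those of E2f7 and Ccne2 (Pearson r = 0.97), and the least alike were Rb1 and Cdc25a (r = -0.943). Among 10865 genes with a brighter main probe set, those most like E2f7 were Ddx20 (r = 0.9984), Mbnl3 (0.9925) and Nsd2 (0.9914). Those most like E2f8 were Cyrib (0.9896), Cubn (0.9869) and Pkp4 (0.983), and those most like Rbl1 were Fabp5 (0.9903), Oip5 (0.9886) and H2az1 (0.9855). For E2f3 they were Ctps (0.9851), Cdk6 (0.9785), the kinase partner of D cyclins, and Larp1 (0.9746). For E2f2 they were Ung (0.9527), Ddx21 (0.9506) and Letmd1 (0.9501). For Ccne2 they were Dnaaf2 (0.9933), Lsm2 (0.9927) and Slc5a3 (0.9911), and for Cdc25a Rrp12 (0.9862), Selenoi (0.9852) and Las1l (0.9842). For Rb1 they were Marchf7 (0.9801), Bmt2 (0.9739) and B4galt4 (0.9692). E2f1 and Ccne1 had no gene above 0.9255 and 0.903, with Sema4d and Rnps1 first. These correlations describe 12 arrays and carry no test.

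Some of the partners of these proteins were called. Of 11 genes for other E2F factors, DP proteins, the remaining pocket protein and the LIN proteins that join them in the DREAM complex, 2 were lower with MEKi at 24 h, where 5.86% of all genes were lower, and 0 were higher. They were Tfdp1, the main DP partner (-0.27 ± 0.06; limma adjusted p = 0.0395), and E2f6, a repressor that does not bind RB (-0.25 ± 0.06; limma adjusted p = 0.0479). Neither call held with the block (adjusted p = 0.0647 and 0.0685), and without 1 array 0 of the 11 were called, or 1 without MEKi replicate 3. At 72 h Lin9 was lower (-0.48 ± 0.08; limma adjusted p = 0.00645) and Lin37 higher (0.44 ± 0.11; limma adjusted p = 0.0413), where 5.14% of all genes were lower and 4.03% higher. The Lin37 call did not hold without every array (adjusted p up to 0.149). The median of the list was -0.01 at 72 h and -0.13 at 24 h, beside 0.01 and 0.007 over all genes. The MEKi effect differed between the times in 1 of the 11, where 1.97% of all genes were higher and 2.10% lower. That was E2f6, higher at 72 h than at 24 h (0.49 ± 0.12; limma adjusted p = 0.0375). Leaving out 1 array could end this call (adjusted p up to 0.1).

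In a list of G1 kinases, D cyclins, CDK inhibitors and cyclin E turnover genes, 6 of 19 were lower at 24 h and 1 higher. Over all genes 5.86% were lower and 5.01% higher. The list also holds genes such as Myc, Cdc25b and Cdc25c, so it is not confined to steps upstream of RB. The median of these 19 was -0.22 at 72 h and -0.13 at 24 h, beside 0.01 and 0.007 over all genes. The 24 h count of 7 called genes was 6 with the block and lay between 2 (without MEKi replicate 2) and 7 (without MEKi replicate 3) with 5 arrays, with 3 without MEKi replicate 1 or DMSO replicate 3 and 4 without DMSO replicate 1. Cdk6 fell by 1.02 ± 0.07 (limma adjusted p = 0.000813) and Ccnd1, the D cyclin best known as an ERK-dependent gene, by 0.85 ± 0.13 (limma adjusted p = 0.00931). Myc, a growth-promoting transcription factor, fell by 0.84 ± 0.14 (limma adjusted p = 0.0119), and Ccnd3 by 0.49 ± 0.09 (limma adjusted p = 0.0181). The 1 gene that was higher was Cdk2, the kinase that cyclin E activates (0.30 ± 0.06; limma adjusted p = 0.0252, or 0.0535 with the block), and it is named because it was alone. Leaving out 1 array could end the 24 h calls of Myc, Ccnd3 and Cdk2 (adjusted p up to 0.0563, 0.0706 and 0.0959) but not those of Cdk6 and Ccnd1. At 72 h 5 of 19 were lower and 0 higher, where 5.14% of all genes were lower and 4.03% higher, and with 5 arrays 4 to 6 were called. They included Myc (-1.52 ± 0.23; limma adjusted p = 0.0047), Cdc25b (-0.93 ± 0.08; limma adjusted p = 0.000577), Skp2, which marks p27 for breakdown (-0.66 ± 0.10; limma adjusted p = 0.00498), and Cdc25c (-0.60 ± 0.08; limma adjusted p = 0.00301). Of the genes named at 24 h, Cdk6 (-0.22 ± 0.13), Ccnd1 (-0.37 ± 0.17), Ccnd3 (0.20 ± 0.12) and Cdk2 (-0.20 ± 0.10) were not called at 72 h (limma adjusted p = 0.383, 0.249, 0.394 and 0.299). Across the list the MEKi effect differed between the times in 5 of 19, with 2 higher and 3 lower at 72 h than at 24 h, where 1.97% of all genes were higher and 2.10% lower. The higher ones were Cdk6 (0.80 ± 0.15; limma adjusted p = 0.0137) and Ccnd3 (0.69 ± 0.16; limma adjusted p = 0.0328). The lower ones included Cdc25b (-0.59 ± 0.10; limma adjusted p = 0.00561) and Cdc25c (-0.58 ± 0.11; limma adjusted p = 0.00994). Without 1 array 3 to 5 were called, with 3 without replicate 1 or 3 of DMSO at 24 h, replicate 1 or 2 of MEKi at 24 h or replicate 2 of MEKi at 72 h.

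Most of 30 genes widely known as E2F targets were lower with MEKi. At 72 h 25 were lower and 0 higher, where 5.14% of all genes were lower and 4.03% higher, with a median of -0.62 over the list and 0.01 over all genes. At 24 h 19 were lower and 1 was higher, where 5.86% of all genes were lower and 5.01% higher, with a median of -0.31 over the list and 0.007 over all genes. With the block the 24 h counts were 16 lower and 1 higher, since Mcm6, Tk1 and Ezh2 lost their calls (adjusted p = 0.0524, 0.0576 and 0.0731), which are named as the ones that changed. Without 1 array the 24 h count of 20 called genes was 21 without MEKi replicate 3, lay between 8 and 13 without any other array but MEKi replicate 1, and was 6 without that one. At 72 h it lay between 16 (without MEKi replicate 2) and 25, and was 25 with the block. Of these genes 18 were lower at both times, or 15 with the block, where 1.71% and 1.52% of all genes were. The list was chosen with results of these arrays known, so its direction is not independent evidence.

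The largest falls among the targets at 72 h were in Cdc45, a part of the replicative helicase (-0.88 ± 0.12; limma adjusted p = 0.00255), Chek1, a checkpoint kinase (-0.84 ± 0.08; limma adjusted p = 0.000671), Mcm7, another helicase subunit (-0.82 ± 0.10; limma adjusted p = 0.00159), and Tk1, thymidine kinase (-0.81 ± 0.13; limma adjusted p = 0.00631). At 24 h Cdt1, which loads the helicase, fell by 0.64 ± 0.09 (limma adjusted p = 0.00543), Uhrf1 by 0.61 ± 0.09 (limma adjusted p = 0.00794) and Mcm3 by 0.51 ± 0.06 (limma adjusted p = 0.00424). Brca1, a DNA repair gene, was the exception, higher with MEKi at 24 h by 1.15 ± 0.10 (limma adjusted p = 0.00151) and with groups that differed by -0.10 at 72 h (limma adjusted p = 0.825). Over time 29 of 30 targets were lower at 72 h in MEKi cells and 25 in DMSO cells, where 16% and 16.9% of all genes were lower. In MEKi cells 0 were higher and in DMSO cells 1 was, where 13.5% and 14.2% of all genes were higher. That 1 was Brca1 (0.86 ± 0.14; limma adjusted p = 0.00247). Its means were 12.66 at 72 h and 11.80 at 24 h in DMSO cells, and 12.56 and 12.95 in MEKi cells.

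The MEKi effect on the targets changed between the times in 5 of 30 genes, all toward a lower value at 72 h, where 2.10% of all genes did so. They included Ccna2, cyclin A2 (-0.63 ± 0.09; limma adjusted p = 0.00408), Rrm1, a subunit of ribonucleotide reductase (-0.53 ± 0.13; limma adjusted p = 0.0475), Ezh2, a histone methyltransferase (-0.44 ± 0.09; limma adjusted p = 0.0224), and Brca1 (-1.26 ± 0.23; limma adjusted p = 0.012). With the block 4 were called, without Chek1 (adjusted p = 0.0706). The count rests on single arrays, with 10 called without DMSO 72 h replicate 3, 2 without DMSO 24 h replicate 1 or 3 or replicate 2 of MEKi at either time, and 3 without any other array. The calls of Rrm1 and Ezh2 ended without some of these arrays (adjusted p up to 0.109 and 0.0682), while those of Ccna2 and Brca1 held without any 1 array. The other 25, among them Cdc45 and Mcm7, were not shown to differ in their MEKi effect between 72 h and 24 h.

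**Figure D4:**
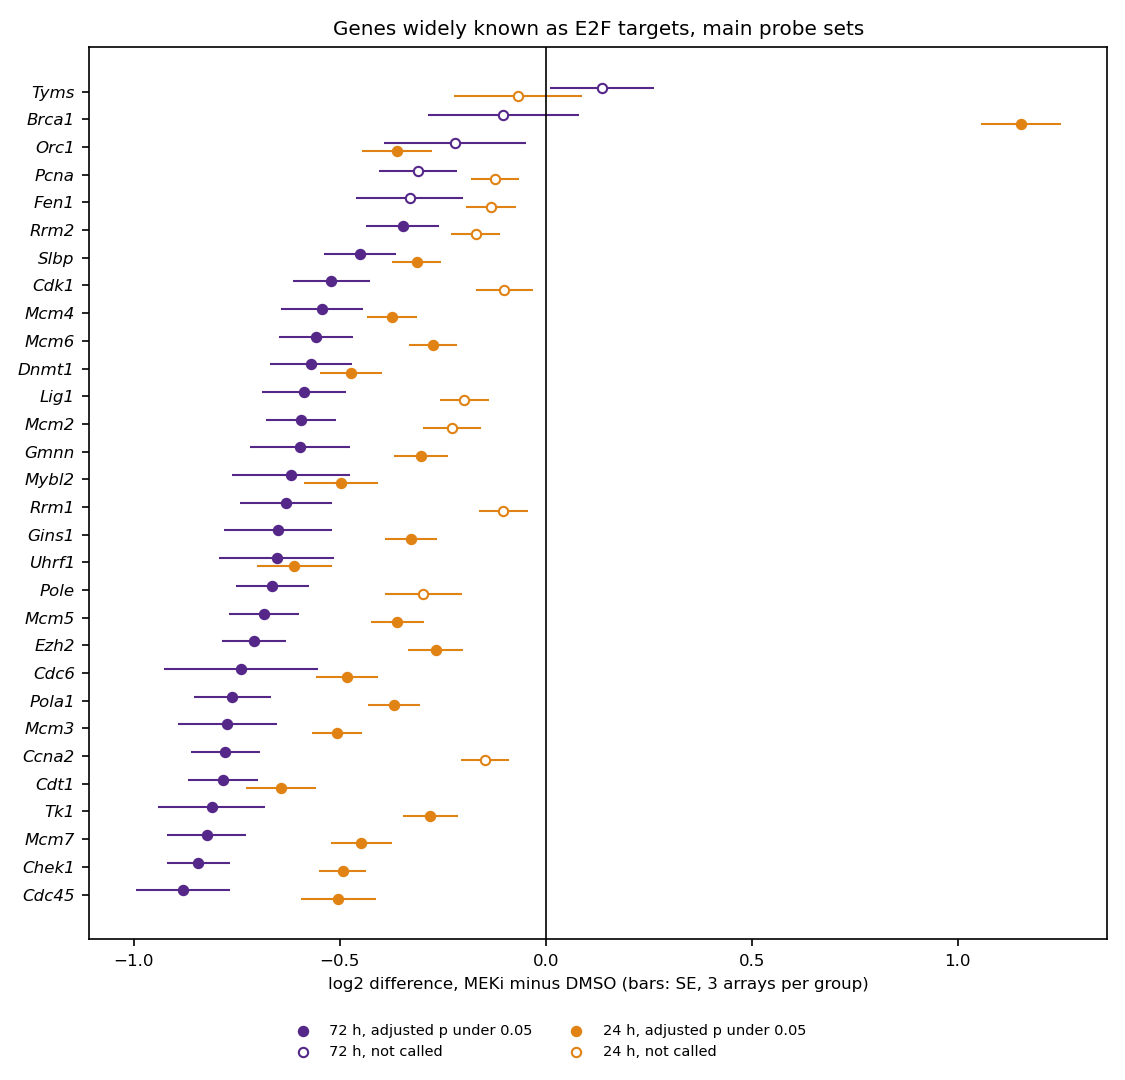
Log2 difference between MEKi and DMSO (x axis, bars are the SE, 3 arrays per group) for 30 genes widely known as E2F targets (y axis, ordered by the 72 h value) at 72 h (purple) and 24 h (orange), with filled points for an adjusted p under 0.05. At 72 h 25 filled points lie left of 0, at 24 h 19 do, and Brca1 at 24 h is the 1 filled point right of it.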

How the data were processed

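B16-OVA RNA, 12 samples in all, was hybridised to Affymetrix mouse genome arrays, 1 per sample. Per the labels, total RNA was labelled with a 3′ IVT kit, and the submitters' processing notes name RMA. The values deposited by the authors are log2 signals, background-corrected, normalized across arrays and summarized per probe set. The version of that software is not given in the sources used here. RMA includes quantile normalization, which removes most shifts common to all genes, yet the deposited arrays still differed between times, with medians of 5.36 to 5.42 and interquartile ranges of 4.06 to 4.19 at 72 h, and 5.31 to 5.34 and 4.24 to 4.33 at 24 h. Values set across times include that shift. Precision is limited by having 3 arrays a group.

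Groups came from the sample titles. Of 45101 probe sets, 64 controls were left out of the tests. Gene names came from the platform annotation, updated by gene ID. Each comparison was a limma fit (version 3.58.1, R 4.3.3) on its own 6 arrays with no covariates, after the study's methods, and the difference of MEKi effects used all 12. Tests were two-sided, with Benjamini-Hochberg adjustment over 45037 probe sets and a threshold of 0.05. Log2 differences are MEKi minus DMSO or 72 h minus 24 h, with the moderated SE. The fits were tested on simulated data.

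Named genes are all members, up to 4 called genes with the largest change per list and comparison, Dusp6, Spry4, Etv5 and the 3 genes most like each member, with predicted genes passed over. Single exceptions are marked in the text. The members, lists and tests were chosen with earlier results of these data known. Some listed genes are not reported here. Promoter letters come from RefSeq (GRCm38.p6), with the 250 bases before each start.

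Replicate numbers were checked as pairs by correlating deviations from the group means. Over all probe sets, r between same-numbered MEKi and DMSO arrays was 0.189, 0.163 and 0.13 for the 72 h pairs, with 0.0729, 0.125 and 0.151 for the 24 h pairs. Over probe sets with a mean above the median it was 0.307, 0.271 and 0.214 for 72 h, with 0.207, 0.283 and 0.282 for 24 h. Numbers were taken as pairs within a time, and a value with the number as a block is given where it changes a call. Between the times, r of same-numbered arrays over all probe sets was 0.0339, 0.0181 and 0.00558 in DMSO cells. In MEKi cells it was 0.0723, -0.0174 and 0.107. The block in the time comparisons joined these arrays, whose pairing was not shown. The alternatives were that block, all 12 arrays in 1 fit, brighter probe sets only, arrays centred on their median, quantile normalization again, array weights, a trended and robust prior, averaging the probe sets of a gene, requiring at least 2-fold, and omitting each array singly.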

Additional observations from a re-analysis of the deposited data

Results flagged for a closer look

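The MEKi effect differed between the harvest times, by the test of the difference itself (72 h minus 24 h, limma over 12 arrays), in 5 of the 22 probe sets. For E2f8 the difference was -0.89 on its main probe set, 1436186_at, and -0.91 on 1444319_at. For Rbl1 it was -0.59 on its main probe set, 1424156_at, and not on 1425166_at. For E2f3 it was 0.49 on its main probe set, 1434564_at, and 0.81 on 1427462_at. The call on the main probe set of E2f3 ended without any 1 of 8 arrays (limma adjusted p up to 0.108). The excess of the 3′ over the 5′ Dap control was 1.42 log2 units at 72 h and 2.06 at 24 h, and its part in these differences was not tested.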

How the results depend on the processing

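Over 1230 alternative values of the 17 brighter member probe sets, 1100 kept their direction and side of the threshold, 81 lost a call, 26 gained one and 23 changed sign, all of the last in values that were not called. Outside leaving out an array, the sign changes were E2f3 (1434564_at) at 72 h, 0.135, and over time in MEKi cells, 0.010, with the mean over probe sets; E2f1 (1431875_a_at) over time in MEKi cells, 0.003, with that mean; and, with quantile normalization again, Ccne1 at 72 h (1416492_at, 0.012) and over time in MEKi cells (1441910_x_at, 0.014), E2f1 over time in MEKi cells (1417878_at, 0.051) and Rbl1 over time in DMSO cells (1424156_at, 0.044). Without 1 array, E2f1 (1417878_at) at 72 h ranged over -0.178 to 0.015 and over time in MEKi cells over -0.098 to 0.042. At 72 h, Rb1 (1417850_at) ranged over -0.207 to 0.013, Ccne1 (1416492_at) over -0.195 to 0.120 and Cdc25a (1417131_at) over -0.127 to 0.058. Ccne1 (1441910_x_at) over time in MEKi cells ranged over -0.215 to 0.020. The difference of MEKi effects ranged over -0.050 to 0.160 for E2f1 (1431875_a_at) and over -0.137 to 0.098 for Rbl1 (1425166_at).

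Of the member probe sets, 7 were called for MEKi at 72 h and 12 at 24 h, 11 over time in MEKi cells, 12 over time in DMSO cells and 5 in the difference. With the replicate number as a block these counts were 8, 10, 11, 12 and 5. Pairing of arrays was taken within a time, but in the time comparisons the block joined same-numbered arrays across times. With a change of at least 2-fold they were 0, 0, 4, 4 and 0. Without 1 array they ranged over 4 to 6, 4 to 11, 9 to 11, 11 to 14 and 4 to 5. Over all probe sets, in the same order, 3260, 3801, 11345, 11540 and 1358 were called, with the block 3772, 3298, 10833, 10413 and 1844, with at least 2-fold 190, 124, 688, 701 and 186, and without 1 array 1383 to 2716, 1133 to 5091, 8409 to 9872, 8190 to 10832 and 668 to 1798. All 12 arrays in 1 fit called 5373 at 72 h. Array weights called 5890 at 24 h and 2606 in the difference, brighter probe sets only called 6403 and 2301, and the trended and robust prior 6623 and 2106. The highest 24 h count over all probe sets came without MEKi replicate 3 and the lowest without MEKi replicate 1. The cause of these shifts was not tested.

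Settings other than the block that ended a member's call were quantile normalization again for E2f1 (1417878_at) at 24 h, Ccne1 (1416492_at) over time in DMSO cells and E2f2 (1436434_at) over time in MEKi cells, arrays centred on their median for E2f3 (1427462_at) over time in MEKi cells, all 12 arrays in 1 fit for E2f1 (1417878_at), E2f2 (1436434_at) and both probe sets of Ccne1 at 24 h, and the mean over probe sets, which for Rbl1 takes in 2 dim ones, for the difference in Rbl1. At 24 h array weights and brighter probe sets only each added calls of E2f1 (1431875_a_at, lower), Rb1 (1417850_at, higher) and E2f8 (1444319_at, higher), and the trended and robust prior added E2f1 and Rb1. Detection calls were not analysed here, so how far the 5 dimmer probe sets stood above background is unknown.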
